A study of Mus musculus with 21 samples.

Results

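The Egr and Nr4a activity-regulated genes are 10 genes whose transcription responds to neuronal activity, most of them rapidly: the EGR factors Egr1, Egr2, Egr3 and Egr4, the orphan nuclear receptors Nr4a1, Nr4a2 and Nr4a3, the EGR co-repressor Nab2, and Arc and Npas4. They were picked by symbol from 21872 gene symbols that 2 count tables of mouse brain RNA share, and all 10 were found in both. The choice was made with earlier results of the same comparison of trientine (TETA) with water in view. Differences between TETA and control in these genes, the change of those differences with age and the correlations over libraries are therefore given as a description, with no p-value. Where the text says that one of the 10 did or did not pass the threshold of the fit over all genes, this places it among those genes and is no independent test of it.

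The mice received water (control) or TETA, a copper-chelating drug, and the series names the treated state copper deficiency. Libraries came from 6 control and 6 TETA samples at embryonic day 18.5 (E18.5) and from 5 control and 4 TETA samples at 7 weeks of age. The protocol text describes prefrontal cortex of male mice at 7 weeks. The tissue label of every library is brain, and strain, dose, genotype and the region and sex of the E18.5 samples were not given in the sources used here. Nothing says whether libraries of a group came from separate animals, so the spread between them may in part be technical. Total counts were 14678265 to 24308555 per library at E18.5 and 17838051 to 24035857 at 7 weeks. In the E18.5 table, 1940 genes were at 0 in control replicate 1-1 and multiples of 11 in every other library, and were divided by 11 before any fit. None of the 10 genes was among them.

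EGR proteins are zinc finger transcription factors that bind GC-rich sites, and NAB2 binds to EGR1, EGR2 and EGR3, holds down their activity and is itself an EGR target, which closes a feedback loop. NR4A proteins act without a known natural ligand, since their binding pocket is filled by their own side chains, and their abundance is set mainly by transcription. Calcium entry and ERK signalling start transcription of these genes through SRF with its ELK partners at CArG boxes and through CREB at cAMP response elements (CRE). Arc protein works at the synapse, where it takes AMPA receptors off the membrane, and NPAS4 is a calcium-dependent factor that tunes inhibitory synapses.

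The stretches of 250 bases before the annotated start sites were searched for the letters that CREB, SRF, EGR and NR4A proteins are known to bind. They come from RefSeq (GRCm38.p6, the same assembly as the mm10 build of the count tables), which gave entries for 7 of the 10 genes: Egr2, Egr4, Nr4a1, Nr4a2, Nr4a3, Nab2 and Npas4. 4 windows without annotated exon are printed 5′ to 3′ on the strand of the gene. Capitals mark the core letters of the CRE (TGACG, or CGTCA when read on the other strand), the CArG box and the EGR site (GCGTGGGCG or GCGGGGGCG, both strands).
Egr2, chr10:67537619-67537868, plus strand: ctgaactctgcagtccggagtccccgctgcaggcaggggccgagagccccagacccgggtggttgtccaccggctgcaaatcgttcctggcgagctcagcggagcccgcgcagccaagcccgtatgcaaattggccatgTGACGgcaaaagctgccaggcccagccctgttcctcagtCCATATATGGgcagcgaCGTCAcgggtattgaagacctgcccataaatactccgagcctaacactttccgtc
Egr4, chr6:85513590-85513839, minus strand: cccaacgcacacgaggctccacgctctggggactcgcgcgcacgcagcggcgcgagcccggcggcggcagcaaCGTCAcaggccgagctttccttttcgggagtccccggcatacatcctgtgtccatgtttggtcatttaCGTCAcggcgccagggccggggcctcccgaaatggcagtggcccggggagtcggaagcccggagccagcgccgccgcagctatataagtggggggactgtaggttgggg
Nr4a1, chr15:101266596-101266845, plus strand: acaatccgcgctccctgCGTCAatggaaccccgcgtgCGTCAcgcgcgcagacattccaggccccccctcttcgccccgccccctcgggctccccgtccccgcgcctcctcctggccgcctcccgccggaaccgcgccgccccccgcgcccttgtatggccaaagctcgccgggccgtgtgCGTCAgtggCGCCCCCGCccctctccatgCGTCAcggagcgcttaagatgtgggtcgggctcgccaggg
Nr4a2, chr2:57124004-57124253, minus strand: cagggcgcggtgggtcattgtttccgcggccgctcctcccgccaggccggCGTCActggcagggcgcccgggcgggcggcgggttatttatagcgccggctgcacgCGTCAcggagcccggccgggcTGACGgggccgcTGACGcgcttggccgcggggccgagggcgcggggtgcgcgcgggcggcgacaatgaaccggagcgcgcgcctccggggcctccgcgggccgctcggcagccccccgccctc

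The CRE core letters occurred 4 times in the Nr4a1 window and 4 times in the Nr4a2 window. They occurred 2 times in the Egr4 window and 2 times in the Egr2 window. Windows of 6 of the 7 genes held them at least once, Nr4a3 with 4 matches and Npas4 with 2 included, and the Nab2 window held none. In GENCODE M21 the Npas4 window is annotated exon over all 250 bases and the Nr4a3 window over 152, so those matches do not lie plainly upstream of the transcript. Among all 32851 promoter windows of the same length 17.8% held the letters, and counted per gene, 19.8% of 27025 genes had a window that did. Egr2 has 5 annotated starts, and its printed window also held a CArG box 72 bases before the start, letters found in 1.47% of all windows. The EGR site of the Nr4a1 window lay 60 bases before the start and was found in 3.06% of all windows. The full palindromic CRE (TGACGTCA, which holds the core letters on both strands, in 1.55% of all windows) and the NR4A monomer site (AAAGGTCA, in 1.34%) were in none of the windows of the 7 genes. A match of letters describes the sequence only. Nr4a2, called lower in TETA at 7 weeks where Egr3, Nr4a3, Nab2 and Arc were called higher, carried the CRE core letters as often as Nr4a1.

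At 7 weeks, TETA libraries held more RNA of Egr3, Nr4a3, Nab2 and Arc than controls and less of Nr4a2. These 5 of the 10 genes passed an adjusted p of 0.05 by edgeR quasi-likelihood over 14240 genes, of which 9.96% passed. In the direction of the first 4, 5.67% of all genes passed, and in that of Nr4a2, 4.28%. Because the genes were chosen with this comparison known, nothing is read from these shares. The log2 difference was above 0 for 8 of the 10, with a median of 0.36. Of all genes tested 50.1% were above 0, with a median of 1.9e-04. Levels below are CPM (counts scaled to library size, with TMM factors), and differences are log2 ratios of TETA over control with their standard error (SE).

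**Figure D1:**
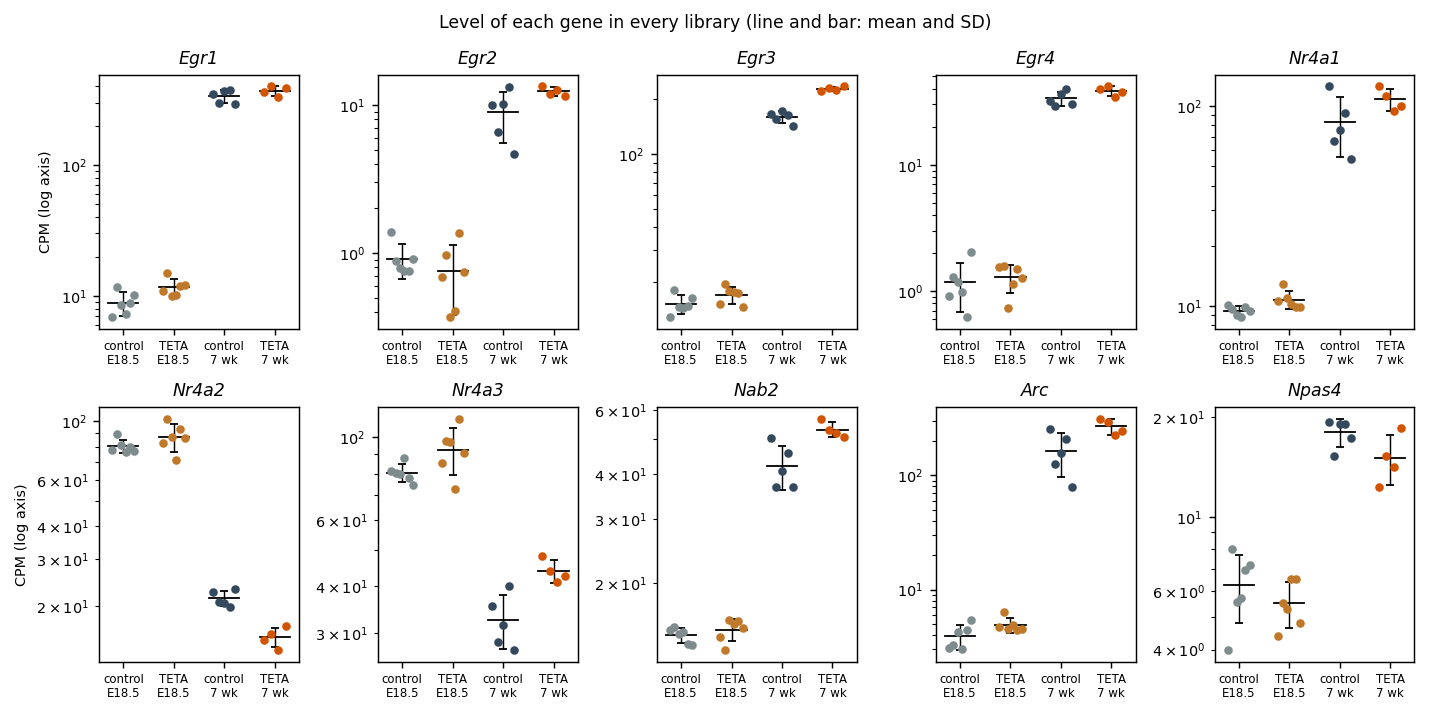
Level of each of the 10 genes in every library (points; CPM, log axis) in control and TETA at E18.5 and at 7 weeks, with the mean (line) and SD (bar) of each group. At 7 weeks Egr3, Nr4a3 and Nab2 lay above and Nr4a2 below every control library, while all 10 genes overlapped between groups at E18.5.

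Among the EGR factors, Egr3 differed most cleanly. Egr3 (chr14:70077203-70082614), an EGR1-related factor that acts in memory and is itself downstream of neuronal activity, stood at 166, 156, 172, 164 and 142 CPM in control replicates 1 to 5. In TETA replicates 1 to 4 it stood at 220.5, 229, 223 and 235 CPM. All 4 TETA libraries lay above all 5 controls, and the TETA libraries lay within a narrow band (coefficient of variation 2.87%). The log2 fold change was 0.50 (SE 0.0443), or 1.42-fold.

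Egr1, the most abundant of the 4 EGR transcripts at this age and the usual marker of recently active neurons, was nearly level. Its values were 347, 296, 368, 377 and 291 CPM in control and 360.3, 401, 332 and 387 CPM in TETA. The groups overlapped, and the log2 fold change was 0.14 (SE 0.0664), not past the threshold. It was 0.09 without control replicate 5 and 0.19 without TETA replicate 3. Egr4 (chr6:85511121-85513589), a neuron-enriched EGR factor, was at 32.0, 29.1, 36.5, 39.6 and 30.2 CPM in control and at 39.9, 41.9, 34.4 and 37.8 CPM in TETA. These ranges overlapped too, with a log2 fold change of 0.20 (SE 0.0768).

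Egr2 (chr10:67535475-67542188), known for hindbrain patterning and for myelination by Schwann cells and also induced in active neurons, was the lowest EGR transcript. It was at 9.94, 6.54, 10.1, 13.3 and 4.68 CPM in control and at 13.4, 11.8, 12.7 and 11.4 CPM in TETA. Control libraries were spread 2.85-fold from lowest to highest, and the TETA libraries fell at the top of that range. Its log2 fold change of 0.49 (SE 0.180) was close to that of Egr3, with a wider SE, and did not pass.

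Nab2 (chr10:127660918-127668568), the brake on EGR proteins, was higher in TETA. It was at 50.1, 36.8, 40.7, 45.8 and 36.8 CPM in control and at 56.7, 52.7, 51.9 and 50.7 CPM in TETA. The groups did not overlap, but the lowest TETA library lay just above the highest control. The log2 fold change was 0.34 (SE 0.0724). The last 40 bases of Nab2 overlap the end of Stat6 on the opposite strand in GENCODE M21. How strand was used in counting was not given in the sources used here, so reads there cannot be assigned to either gene.

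The NR4A receptors split. Nr4a3 (chr4:48045153-48086447), also called NOR1, stood at 35.4, 28.4, 31.5, 40.0 and 27.0 CPM in control and at 48.1, 43.9, 41.0 and 42.6 CPM in TETA. Every TETA library exceeded every control library, with a log2 fold change of 0.44 (SE 0.0839). Nr4a1 (chr15:101254269-101274795), or NUR77, a receptor that restrains spine density on active neurons, was at 126, 66.7, 75.6, 92.6 and 54.6 CPM in control and at 126, 112, 94.5 and 100.1 CPM in TETA. Control replicate 1 reached the level of the highest TETA library, and the log2 fold change of 0.38 (SE 0.152) did not pass. Without control replicate 1 it was 0.59 and passed, and without control replicate 5 it was 0.26 and did not.

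Nr4a2 moved the other way. Nr4a2 (chr2:57106830-57124003), or NURR1, is needed for midbrain dopamine neurons and marks claustrum and deep cortical cells besides being inducible by activity. It stood at 22.6, 20.6, 20.5, 19.8 and 23.1 CPM in control and at 14.9, 15.7, 13.6 and 16.7 CPM in TETA. All 4 TETA libraries lay below all 5 controls, with a log2 fold change of -0.49 (SE 0.0689). Of the 8 other claustrum and subplate markers, 4 were lower in TETA at an adjusted p under 0.05 by edgeR quasi-likelihood and none was higher, where 4.28% of all genes were lower. Gnb4, a G protein subunit, was lower by a log2 of -0.32 (SE 0.0528, adjusted p = 0.000561), and the opioid receptor Oprk1 by -0.58 (SE 0.114, adjusted p = 0.00223). Synpo2 and Lmo3 were at -0.52 and -0.15, and Cplx3, Ccn2, Nxph4 and Moxd1 were between -0.06 and 0.02 and did not pass. Summed over the 8 markers the level was 224 to 237 CPM in control and 195 to 217 CPM in TETA. In bulk tissue, fewer cells of a type and less RNA per cell cannot be told apart, and the part of these markers in the Nr4a2 difference was not tested.

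Arc passed the threshold and Npas4 did not. Arc (chr15:74669083-74672570) was at 252, 125, 158, 209 and 79.0 CPM in control and at 312, 292, 225 and 242 CPM in TETA. The control libraries varied 3.19-fold, the widest control range of the 10 genes at 7 weeks, and control replicate 1 lay within the TETA range. The log2 fold change was the largest of the 10, at 0.70 (SE 0.198). The call for Arc was lost without control replicate 2, control replicate 3, TETA replicate 1 or TETA replicate 2, each left out alone, and in DESeq2. Npas4 (chr19:4984355-4990316) was at 19.3, 15.3, 19.1, 19.1 and 17.3 CPM in control and at 12.3, 15.3, 14.2 and 18.5 CPM in TETA. The groups overlapped, and the log2 fold change of -0.26 (SE 0.0953) did not pass, except without control replicate 2 (-0.31) or TETA replicate 4 (-0.37), and was -0.17 without TETA replicate 1.

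The same libraries set the ends of the range for several of the 10 genes. Control replicate 5 was the lowest control for 6 of them, and control replicates 1 and 4 were the highest for 4 each. Control replicate 4 also stood apart in choroid plexus markers, which summed to 58.9 CPM there and to 2.12 to 4.68 CPM in the other 8 libraries at this age. Without it 1173 genes of all tested passed in place of 1418, and 7 of the 10 genes passed, Egr2 and Egr4 in addition to the 5, and the part of choroid plexus RNA in these values was not tested. In TETA, replicate 3 was the lowest for 6 and replicate 1 the highest for 5. Control and TETA ranges were separate for 4 of the 10 genes. Of all genes tested 11.2% had separate ranges, and that share too was known when the genes were chosen.

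**Figure D2:**
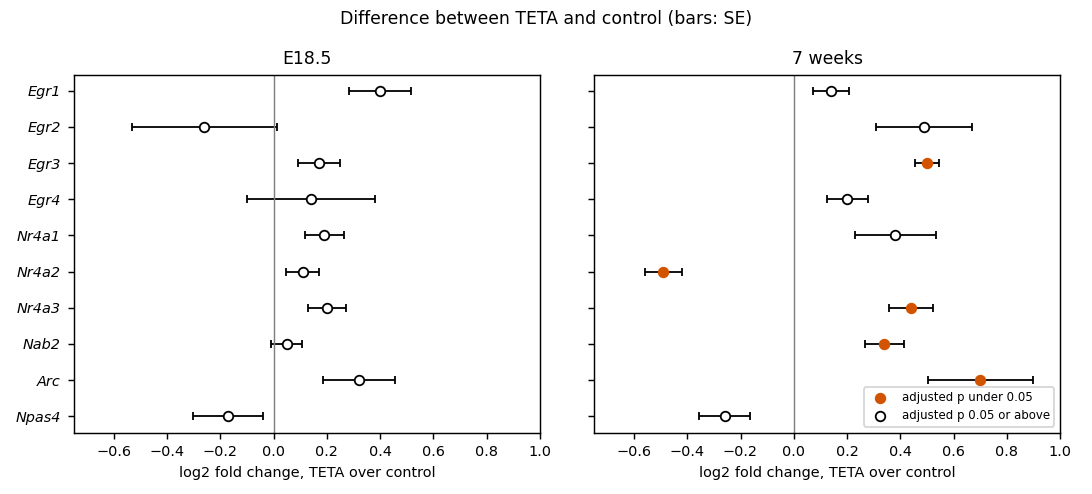
Log2 fold change of TETA over control (x axis; bars show the SE) for the 10 genes at E18.5 and at 7 weeks; filled points passed an adjusted p of 0.05 by edgeR quasi-likelihood. Nr4a2 is at -0.49 at 7 weeks and 0.11 at E18.5, and no gene is filled at E18.5.

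Markers of striatal neurons moved between the same 7-week groups. All 15 of them, among them the dopamine receptors Drd1 and Drd2 and the adenosine receptor Adora2a, were lower in TETA at an adjusted p under 0.05 by edgeR quasi-likelihood, with a median log2 of -1.34, where 4.28% of all genes were lower. Their summed level was 1481, 1245, 1412, 1375 and 1208 CPM in control replicates 1 to 5 and 711, 714, 573 and 632 CPM in TETA replicates 1 to 4. The nuclear or intron-retaining RNAs counted were Snhg11, Ttc14, Clk1 and Clk4. Meg3, Malat1, Neat1 and Miat were also on that list but are not among the gene symbols. Of the 4 counted, 4 were higher in TETA (5.67% of all genes were). Their summed level was 992 to 1241 CPM in control and 1519 to 1821 CPM in TETA. Neuron markers summed to 9653 to 9771 CPM in control and 9487 to 9924 CPM in TETA. Cortical projection neuron markers summed to 2768 to 2907 and 2746 to 2847 CPM. Of 8 neuron markers, 1 passed as higher and 2 as lower. Of 14 cortical projection neuron markers 3 passed as lower, and of 9 interneuron markers 2 did. In both lists 0 passed as higher. No marker counted in any of the 13 lists was at 0 in every library of a group. With the striatal marker score as a covariate, 1 gene of all tested and none of the 10 genes passed. Egr3 was then at a log2 of 0.73, Nr4a3 at 1.13, Nab2 at 0.89, Arc at 2.80 (SE 0.565) and Nr4a2 at -0.34. The marker sums did not overlap between the groups, so treatment and score could hardly be separated in that fit and nothing is read from these values. The part of tissue composition in these differences was not tested.

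**Figure D3:**
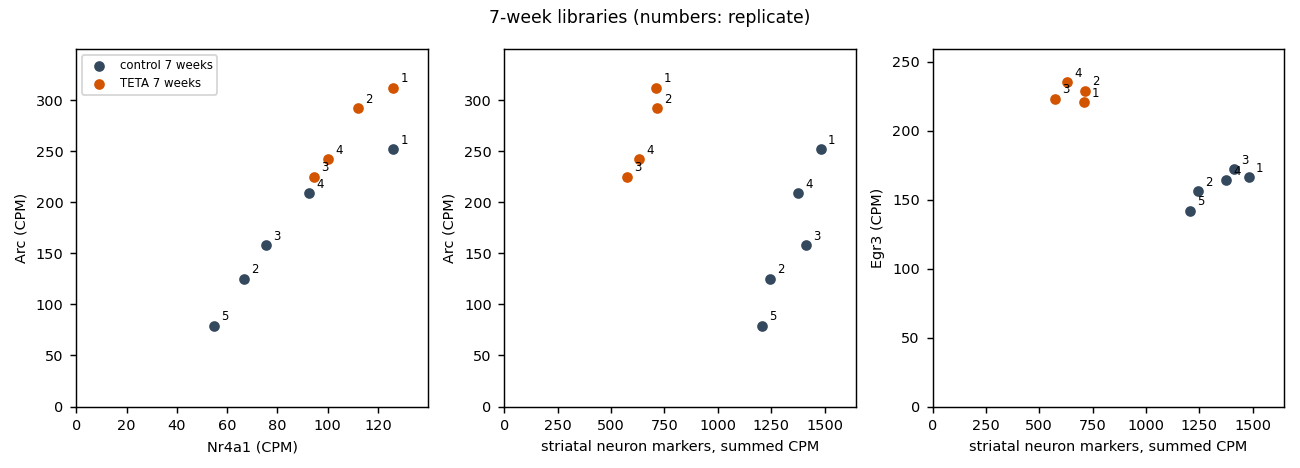
Arc against Nr4a1 (left), Arc against summed striatal neuron markers (middle) and Egr3 against the same markers (right) in the 5 control and 4 TETA libraries at 7 weeks, in CPM on linear axes from 0, with replicate numbers beside the points. Within each group libraries with more Nr4a1 had more Arc, and the 4 TETA libraries lay at 573 to 714 CPM of striatal markers and 220.5 to 235 CPM of Egr3.

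Other activity genes at 7 weeks were read from lists that, like the 10 genes, were chosen with earlier results of these data known. Of 33 FOS, JUN and other early response genes tested, 10 were higher in TETA and 0 were lower, with a median log2 of 0.27, where 9.96% of all genes passed and their median was 1.9e-04. Fosl2, a FOS family subunit of AP-1, rose from 29.1 ± 2.38 to 39.8 ± 1.60 CPM (SD, n = 5 and 4; log2 difference 0.45, SE 0.0564, adjusted p = 2.77e-05 by edgeR quasi-likelihood). Fosb rose from 11.6 ± 1.94 to 17.2 ± 0.913 CPM, and the zinc finger factor Klf2 from 6.41 ± 0.480 to 10.1 ± 0.438 CPM. Of 18 later activity genes, 5 were higher and 1 was lower, where 5.67% of all genes were higher and 4.28% were lower. The pentraxin Nptx1, which clusters AMPA receptors, rose by a log2 of 0.28 (SE 0.0279), and the granin Scg2 fell to a log2 of -0.16 (SE 0.0367).

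Signalling genes upstream of the 10, listed together with feedback genes that ERK induces, showed no common direction. Of 29 genes of ERK feedback and of the ERK, SRF and CREB inputs, 3 were higher and 3 were lower in TETA, with a median log2 of 0.03. Over all genes 5.67% were higher and 4.28% were lower. Dusp5, a nuclear phosphatase of ERK that ERK itself induces, rose from 8.39 ± 1.32 to 14.3 ± 2.18 CPM (SD, n = 5 and 4; log2 difference 0.77, SE 0.110, adjusted p = 0.000142 by edgeR quasi-likelihood). The CREB kinase Camk4 was at a log2 of -0.23 and Mef2c, an activity-dependent factor, at -0.14, both past the threshold. Of 13 protein partners, Rxrg, a retinoid X receptor that pairs with NR4A receptors and is abundant in striatum, fell from 16.9 ± 1.90 CPM to 5.87 ± 0.610 CPM, a log2 of -1.53 (SE 0.0947). Arnt, a bHLH-PAS partner, rose by a log2 of 0.26, and Dnm2, a dynamin that binds Arc, was at 0.12 and did not pass (adjusted p = 0.172 by edgeR quasi-likelihood).

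At E18.5 none of the 10 genes passed, and neither did any of 13794 genes tested (0%) by edgeR quasi-likelihood; DESeq2 called 10 genes, none of the 10 described here. At an unadjusted p under 0.05 by edgeR quasi-likelihood there were 660 genes (4.78%), about the share that this threshold gives where nothing differs. The log2 difference was above 0 for 8 of the 10 (48.2% of all genes), with a median of 0.15 over the 10 and of -2.7e-03 over all genes. Values of control and TETA overlapped for all 10 genes, where 0.312% of all genes did not overlap. Libraries are summarised here by the lowest, median and highest of 6.

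Egr1 showed the largest difference at this age. It ranged from 6.88 through a median of 8.67 to 11.8 CPM in control and from 9.96 through 11.4 to 15.1 CPM in TETA. Of the 6 controls only replicates 1-2 and 3-2 reached the TETA range, and the log2 fold change was 0.40 (SE 0.116). Arc was at 3.02, 3.75 and 5.39 CPM in control and at 4.42, 4.65 and 6.39 CPM in TETA (log2 difference 0.32, SE 0.135). Its highest value, in TETA replicate 1-2, stood apart from the other 5, which were at 4.42 to 4.86 CPM.

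The other EGR genes were closer. Egr3 was at 12.9, 14.7 and 18.2 CPM in control and at 14.7, 17.5 and 19.5 CPM in TETA (log2 difference 0.17, SE 0.0779). Egr2, with 6 to 22 counts per library, and Egr4, with 12 to 43, were too low for a fine comparison. Their log2 fold changes were -0.26 (SE 0.272) and 0.14 (SE 0.240), each within about its own SE. Leaving out 1 library at a time moved Egr2 between -0.48 (without TETA replicate 3-1) and -0.10 (without TETA replicate 2-2), and it was -0.13 without control replicate 1-1 and -0.14 without TETA replicate 2-1. Egr4 moved between -2.4e-03 (without control replicate 3-1) and 0.39 (without control replicate 3-2). Nab2 was at 13.5, 14.6 and 15.2 CPM in control and at 13.1, 15.3 and 15.8 CPM in TETA (log2 difference 0.05, SE 0.0582, and 0.09 without TETA replicate 1-2).

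The NR4A genes were higher by small amounts within overlapping ranges. Nr4a1 was at 8.76, 9.52 and 10.1 CPM in control and at 9.89, 10.3 and 12.9 CPM in TETA (log2 0.19, SE 0.0731). Nr4a3 was at 74.5, 80.2 and 88.2 CPM in control and at 72.6, 94.0 and 112 CPM in TETA (log2 0.20, SE 0.0703). Nr4a2 was at 76.1, 78.9 and 89.2 CPM in control and at 71.0, 86.6 and 102 CPM in TETA (log2 0.11, SE 0.0618, and 0.17 without TETA replicate 2-2). For both of the last, TETA libraries were more spread than controls and included the lowest as well as the highest library. Npas4 was at 3.99, 6.33 and 8.01 CPM in control and at 4.41, 5.40 and 6.54 CPM in TETA (log2 difference -0.17, SE 0.132), and its difference ran from -0.26 (without control replicate 1-1) to -0.10 (without control replicate 1-2) when 1 library was left out.

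TETA replicate 1-2 was the highest of its group for 6 of the 10 genes, and control replicate 1-2 for 5. Without TETA replicate 1-2 the log2 fold changes were 0.31 for Egr1, 0.23 for Arc, 0.12 for Nr4a1 and 0.06 for Nr4a2. Nuclear and intron-retaining RNAs summed to 737 CPM in control replicate 1-2, the highest of the 12 libraries, and to 629.9 CPM in TETA replicate 1-2. TETA replicate 2-2, the lowest of its group for Nr4a2 and Nr4a3, was higher in these RNAs at 648 CPM. TETA replicate 1-2 was also the highest of the 12 libraries in cortical projection neuron markers (2812 CPM, the others 2380.4 to 2659) and in neural progenitor markers (478 CPM, the others 405 to 446), and the lowest in microglia markers (29.9 CPM). The part of these markers and RNAs in these values was not tested. Endothelial and mural markers summed to 243 to 265 CPM in control and 256 to 275 CPM in TETA, with 0 of 7 past the threshold and a median log2 of 0.16, and their part was not tested either. Striatal neuron marker sums overlapped at this age, with 716 to 784 CPM in control and 722 to 763 CPM in TETA. With the striatal marker score as a covariate none of the 10 genes passed. The log2 difference was then -0.04 for Npas4, -0.42 for Egr2 and 0.07 for Nr4a2, in place of -0.17, -0.26 and 0.11. Of the 4 activity and signalling lists none had a gene past the threshold by edgeR quasi-likelihood. Of the 2 genes with the smallest p in each list, Ier2 and Junb of the early response list were at a log2 of 0.25 (SE 0.102) and 0.20 (SE 0.0886). Of the later activity genes, the neuropeptide precursor Vgf was at 0.18 (SE 0.0579) and the repressor Bcl6 at -0.19 (SE 0.0715). The SRF partner Elk1 was at -0.11 and Dusp4 at 0.09, and of the protein partners Sh3gl3 was at -0.07 and Stat6 at 0.14. None of these passed.

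The change of the TETA difference between ages was taken as the 7-week minus the E18.5 log2 difference. Of 14660 genes tested, 209 (1.43%) passed with a lower value at 7 weeks, and of the 10 genes Nr4a2 did. With a higher value 245 genes (1.67%) passed and none of the 10 did. It was -0.62 (SE 0.106) for Nr4a2, which lay 0.11 above control at E18.5 and 0.49 below it at 7 weeks on the log2 scale. For Egr3 it was 0.32 (SE 0.0936), just outside the threshold. Egr3 passed with no filter, with a mean of at least 50 counts, without TMM factors and in DESeq2. With 1 library left out it passed only without control replicate 1-1, TETA replicate 1-2 (both E18.5) or control replicate 3 (7 weeks). Egr2 had the largest value, 0.74, with a wide SE of 0.406. It was 0.38 (SE 0.381) for Arc, 0.27 (SE 0.101) for Nab2, 0.23 (SE 0.124) for Nr4a3, 0.18 (SE 0.215) for Nr4a1, 0.05 (SE 0.260) for Egr4, -0.09 (SE 0.176) for Npas4 and -0.27 (SE 0.145) for Egr1. None of these 8 passed. All 15 striatal neuron markers passed with a lower value at 7 weeks (median -1.34). Of 8 claustrum and subplate markers 2 did and 0 passed with a higher value (median -0.27). Of the 4 nuclear or intron-retaining RNAs, 4 passed with a higher value. The part of these markers and RNAs in the values of the 10 genes was not tested. Treatment and control were compared within each age, but age, table and dissected region cannot be told apart in this difference.

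Control libraries were also compared between the ages, a contrast that did not choose the genes. All 10 differed at an adjusted p under 0.05 by edgeR quasi-likelihood over 14375 genes, as did 89.5% of all genes, so the count alone says nothing of these genes. Of the 10, 8 were higher at 7 weeks (44.0% of all genes were) and 2, Nr4a2 and Nr4a3, were lower (45.5%). The median log2 difference was 3.37 over the 10 genes and -0.02 over all genes tested. Without TMM factors the log2 differences of the 10 moved by a median of -0.15.

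The strongest rises were those of Arc, Egr1 and Egr4. In the joint scaling of both tables, Arc was at 3.76 ± 0.907 CPM at E18.5 and 174 ± 72.1 CPM at 7 weeks (SD, n = 6 and 5), 45.5-fold higher (log2 5.51, SE 0.247, adjusted p = 3.55e-16 by edgeR quasi-likelihood). Egr1 went from 8.56 ± 1.78 to 355 ± 42.3 CPM, 41.9-fold, and Egr4 from 1.13 ± 0.469 to 35.4 ± 4.69 CPM, 31.3-fold. Egr3 was 11.6-fold, Egr2 10.9-fold and Nr4a1 9.74-fold higher at 7 weeks. Nab2 and Npas4 rose less, 3.23-fold and 3.17-fold.

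Nr4a2 and Nr4a3 fell with age. Nr4a2 was at 77.2 ± 4.63 CPM at E18.5 and 22.5 ± 1.49 CPM at 7 weeks (SD, n = 6 and 5), 3.41-fold lower (log2 -1.77, SE 0.0529, adjusted p = 1.08e-19 by edgeR quasi-likelihood). Nr4a3 went from 77.3 ± 4.47 to 34.3 ± 5.63 CPM, 2.25-fold lower. Other labelled differences run with age here. The 2 tables were scaled together, and region and sex are given for 7 weeks alone, so age, table and region cannot be told apart. Cell type markers differed too, by median control sums at E18.5 and 7 weeks, each age scaled alone. Neuron markers were at 5839 and 9728 CPM, and cortical projection neuron markers at 2542 and 2816. Oligodendrocyte lineage markers were at 213 and 6081, astrocyte markers at 359 and 1093 and neural progenitor markers at 428 and 65.8. Their part in the age differences was not tested.

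**Figure D4:**
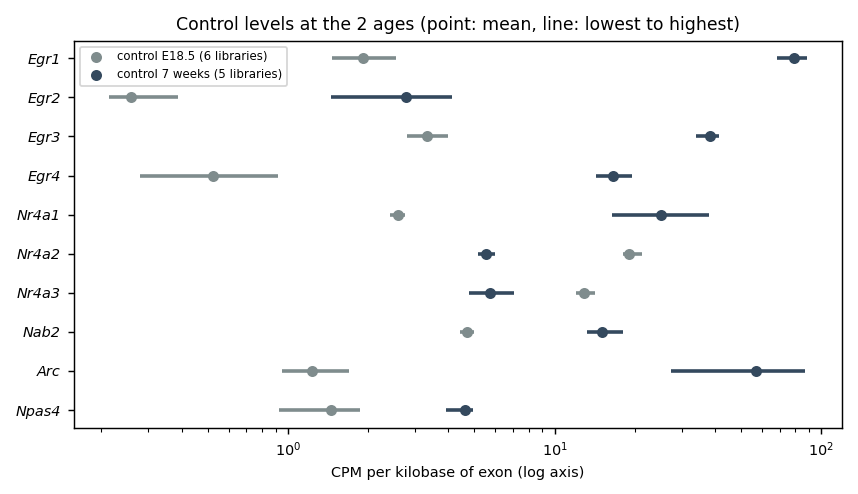
Control level of each gene per kilobase of exon (x axis, log scale) at E18.5 (6 libraries) and at 7 weeks (5 libraries); points are means and lines run from the lowest to the highest library. Nr4a2 and Nr4a3 lie to the right at E18.5, and the other 8 genes lie to the right at 7 weeks.

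The order of the genes by level turned with age. Per kilobase of exon, control levels at E18.5 ran from Nr4a2 at 19.0 and Nr4a3 at 12.9 CPM per kilobase through Nab2 (4.70), Egr3 (3.32), Nr4a1 (2.59), Egr1 (1.91), Npas4 (1.45) and Arc (1.23) to Egr4 (0.525) and Egr2 (0.258). Of the 9 pairs of neighbours in that order, 4 had overlapping library ranges, and the 2 NR4A genes at the top stood clear. At 7 weeks the order began with Egr1 at 79.1, Arc at 56.8, Egr3 at 38.4 and Nr4a1 at 25.0 CPM per kilobase. Egr4 (16.5), Nab2 (15.1), Nr4a3 (5.73), Nr4a2 (5.55), Npas4 (4.60) and Egr2 (2.77) followed. Here 7 of the 9 neighbouring pairs overlapped, and the gaps lay between Nab2 and Nr4a3 and between Nr4a2 and Npas4.

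Correlations over libraries show how far the genes varied together within a group. They are Pearson r of log2 CPM with group means removed, over libraries that share a table and its scaling, and are a description of these libraries. At 7 weeks (9 libraries) the median r over the 45 pairs of genes was 0.58, with 39 pairs above 0 and 28 above 0.5. At E18.5 (12 libraries) the median was 0.18, with 30 pairs above 0 and 10 above 0.5, and it was 0.07 without TETA replicate 1-2. With the striatal marker score regressed out the medians were 0.42 at 7 weeks and 0.31 at E18.5. The difference between the ages was not tested.

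**Figure D5:**
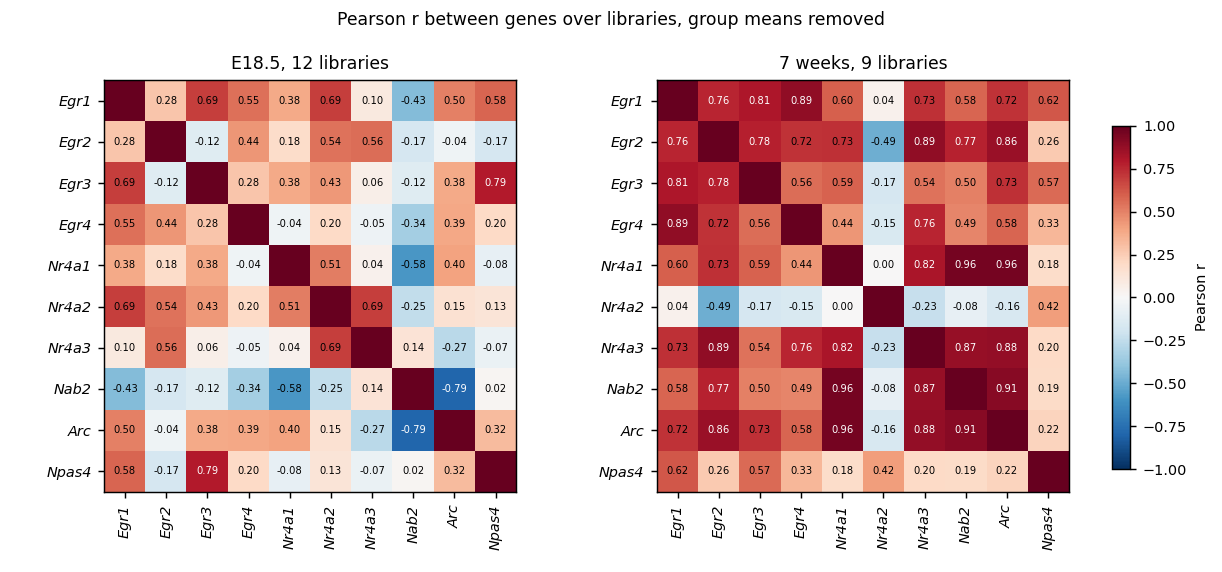
Pearson r between each pair of the 10 genes over 12 libraries at E18.5 (left) and 9 libraries at 7 weeks (right), from log2 CPM with group means removed; red is positive and blue negative. At 7 weeks every pair without Nr4a2 is red, and at E18.5 Nab2 is blue against Arc (-0.79).

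At 7 weeks the closest pairs were Nr4a1 with Arc (r 0.96, Spearman rho 0.98) and Nr4a1 with Nab2 (r 0.96, rho 0.92). Without the 2 libraries farthest from the median of Nr4a1, r was 0.95 and 0.93. Egr1 ran with Egr4 (r 0.89, rho 0.90, and 0.83 without the 2 farthest libraries), and Egr2 with Nr4a3 (r 0.89). Nr4a2 had the lowest r values: its median r with the other 9 genes was -0.15, its lowest r was -0.49 with Egr2, and 3 of the 9 were above 0. Its Spearman rho was -0.53 with Egr2 and -0.22 with Egr1, and was above 0 only with Npas4 (0.38). The Pearson values of Nr4a2 depended on few libraries. Without the 2 farthest libraries 7 of its 9 values were above 0, up to 0.58 with Egr3 and 0.57 with Arc. That with Egr2 was -0.03. For every pair these are the libraries farthest from the median of the gene listed first in the opening. They differ between pairs and are often set by the partner of Nr4a2. Npas4 had a median r of 0.26 and its highest r, 0.62, with Egr1 (rho 0.58, and 0.52 without the 2 farthest libraries). With Egr3 its r was 0.57, its rho 0.83 and its r without the 2 farthest libraries 0.91.

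At E18.5 the closest pair was Egr3 with Npas4 (r 0.79, rho 0.81, and 0.62 without the 2 farthest libraries). Nab2 ran against Arc (r -0.79, rho -0.69, and -0.59 without the 2 farthest libraries), with r at -0.88 in control and -0.88 in TETA libraries alone. The sign of that pair was opposite at 7 weeks, where Nab2 and Arc had an r of 0.91. Nr4a2 and Nr4a3, the 2 abundant members at this age, had an r of 0.69, which was 0.85 in TETA and -0.15 in control libraries alone and 0.40 without the 2 farthest libraries. At 7 weeks the r of this pair was -0.23, and 0.14 without the 2 farthest. Egr2, Egr4 and Arc were measured at low counts at E18.5, which limits any r with them.

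Genes whose level was most like the mean score of the 10, by Pearson r within groups, were named by a rule of the top 8 per age. At 7 weeks they were Zbtb4 (r 0.96), the ERK phosphatase gene Dusp4 and Onecut2 (both 0.95), Sgk3 and Rab42 (both 0.94), and Ppp1r15b, Odf3b and Cox15 (each 0.93). None of these passed the threshold between TETA and control, with Dusp4 at a log2 of 0.24 (SE 0.123, adjusted p = 0.254 by edgeR quasi-likelihood). At E18.5 they were Eml3 (r 0.93), Igdcc4 (0.89), Sulf2 and Rimbp2 (both 0.87), the activin subunit gene Inhba (0.86), and 9330182L06Rik, Cep162 and Ablim1 (each 0.84). No gene was named at both ages. These are the top of a ranking of 14240 genes over 9 libraries and of 13794 genes over 12.

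Within groups at 7 weeks the mean score of the 10 had an r of 0.90 with the FOS and JUN list, 0.83 with the ERK, SRF and CREB list, 0.71 with striatal neuron markers, 0.62 with endothelial and mural markers and -0.56 with the log2 total count. With later activity genes the r was 0.33, with neural progenitor markers 0.53 and with oligodendrocyte lineage markers -0.52. These values pool the deviations of both groups, and Nr4a2 had an r of -0.11 with the score of the other 9 genes. At E18.5 the score had an r of 0.66 with later activity genes, 0.66 with the ERK, SRF and CREB list, 0.63 with neuron markers, 0.62 with cortical projection neuron markers and -0.59 with blood markers. The FOS and JUN list (0.18) and striatal markers (-0.03) were near 0 there. The part of cell composition in these correlations was not tested.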

How the data were processed

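Poly(A) RNA of 21 mouse brain libraries was sequenced with a strand-marking kit (TruSeq Stranded mRNA), per the labels' protocols. The authors deposited 1 table of raw read counts for each age, keyed by gene symbol, per the file headers. The submitters' processing notes name STAR 2.7.1a, featureCounts 2.0.1 and the build mm10; annotation and strand setting were not given in the sources used here. Gene positions and exon lengths came from GENCODE M21 and promoters from RefSeq. Groups and replicate numbers came from sample titles.

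The 10 genes, the 4 pathway and 13 marker lists and the tests were chosen with earlier results of these data known. In the E18.5 table, a divisor of 11 was applied to 1940 genes whose count in control replicate 1-1 was 0; this follows a multiple found in the table, and the original counts were kept as an alternative. Genes were kept by filterByExpr (minimum count 10), scaled by TMM and tested with edgeR 4.0.16 (quasi-likelihood, Benjamini-Hochberg adjustment over all genes tested, threshold 0.05); all 10 genes passed the filter at both ages. Each age was fitted alone, and age and the change of the TETA difference were fitted on both tables joined. The SE was the log2 fold change divided by the square root of F. Correlations were taken on log2 CPM (prior count 2). DESeq2 1.42.0 and limma 3.58.1 ran in R 4.3.3. All pairs of replicate libraries differed by more than counting noise (lowest chi-square per gene 2.304). Named list genes were the 3 with the smallest p per pathway list at 7 weeks and 2 at E18.5, with the 8 genes most like the score at each age; marker genes were named after their values were seen.

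Alternatives were DESeq2, no TMM factors, no filter, a minimum mean of 50 counts, each library left out, a replicate block, summed libraries, the counts as deposited and a striatal marker covariate. Fits were tested on simulated data.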

Additional observations from a re-analysis of the deposited data

Results flagged for a closer look

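Each of the 10 genes was examined in each of the 4 groups for a library far from the rest, by Dixon's ratio (distance to its neighbour divided by the group's range), on log2 CPM. Of 40 groups 2 exceeded its 95% critical value, where chance gives about 1 in 20, or 2. Egr2 was high in control replicate 1-1 at E18.5, at 0.56 with the next control at 0.01 (ratio 0.701), on 21 counts. Arc was high in TETA replicate 1-2 at E18.5, at 6.39 CPM with the next TETA library at 4.86 CPM (ratio 0.744). Without that library the Arc log2 fold change at E18.5 was 0.23 (SE 0.130) in place of 0.32.

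The TETA difference of Nr4a2 changed between ages by -0.62 on the log2 scale (SE 0.106), in the joint fit of both tables; fitted alone, the ages gave 0.11 at E18.5 and -0.49 at 7 weeks. The gene was chosen with both differences known, so this is a description and not an independent test. In that joint fit it was among the 1.43% of all genes beyond the adjusted threshold in that direction. Striatal neuron markers and part of the claustrum and subplate markers changed in the same direction, and their part was not tested. Age, table and dissected region cannot be told apart in this value.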

How the results depend on the processing

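At 7 weeks, 1418 genes and 5 of the 10 passed. With the striatal marker score as a covariate 1 gene (704 at an unadjusted p under 0.05) and 0 of the 10 passed. Leaving out each library gave 927 (without TETA replicate 3) to 1392 genes and 4 to 7 of the 10; DESeq2 gave 4, without Arc. Egr3, Nr4a2, Nr4a3 and Nab2 passed in 9 of 9 such fits and Arc in 5; Egr2 and Egr4 passed without control replicate 4, Nr4a1 without control replicate 1, and Npas4 without control replicate 2 or TETA replicate 4. Without TMM factors the higher share of called genes was 67.6% in place of 57.0% at 7 weeks, 72.0% in place of 54.0% for the change between ages, and 43.7% in place of 49.2% for age.

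At E18.5, 0 genes passed by edgeR quasi-likelihood (660 at an unadjusted p under 0.05), 10 in DESeq2, 2 with libraries of the same first number summed, and 0 to 7 when each library was left out (7 without TETA replicate 1-2, 3 without control replicate 3-2). The Egr4 difference ran from -2.4e-03 (without control replicate 3-1) to 0.39 over these fits. For the change between ages, leaving out each library gave 290 (without TETA replicate 3 at 7 weeks) to 622 genes; the Egr4 value ran from -0.20 to 0.20, below 0 without control replicate 3-2 (-0.20) or TETA replicate 2-1 (-0.05), both at E18.5. Egr3 passed there with no filter, with a mean of at least 50 counts, without TMM factors and in DESeq2. With 1 library left out it passed only without control replicate 1-1, TETA replicate 1-2 (both E18.5) or control replicate 3 (7 weeks). Nab2 passed without control replicate 1 at 7 weeks. For age, all 10 genes kept their direction and their call in the 11 fits without 1 library and in 5 other settings. The median r of the 10 genes at E18.5 was 0.31 with the striatal score regressed out, in place of 0.18, and 0.07 to 0.23 when each library was left out (0.07 without TETA replicate 1-2). At 7 weeks it was 0.42 with that score regressed out, in place of 0.58, and 0.44 to 0.73 when each library was left out. The cause of these changes was not tested. Low counts of Egr2 and Egr4 at E18.5 limit their values.

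With a replicate block, 0 genes passed at E18.5 and 1063 genes, 5 of the 10 among them, at 7 weeks. Deviations of same-numbered libraries correlated at a mean of 0.0188 (-0.275 to 0.284) at E18.5 and -0.0504 (-0.0692 to -0.0295) at 7 weeks, so the numbers were not taken as pairs.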
